A study of Mus musculus with 2 samples.

Results

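The 33 genes described here make cholesterol, control its synthesis, move it inside the cell or send it out again. They were chosen by name, 33 of 49492 gene symbols in the deposited tables, and all 33 were found. The label speaks of uptake, but the 33 include no receptor that takes up lipoproteins. The 33 do not cover every enzyme of the pathway, and other enzymes were not analysed here.

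RNA was sequenced from cultured Nestin+ cells of the bone marrow and of the heart of C57BL/6 mice aged 7 days that carry a Nestin-GFP transgene, in which regulatory sequence of the intermediate filament gene Nes drives a green fluorescent protein. Both cultures were labelled as mesenchymal stem cells and harvested at passage 10. With 1 library from each tissue, differences have no replicate check and no p-value is given. The heart culture received EGF (20 ng/ml), bFGF (20 ng/ml), cardiotrophin-1 (4 ng/ml), N2, B27 and β-mercaptoethanol in DMEM/F12 with IMDM. The bone marrow cells were grown in a medium that the labels give only by citation, so tissue and medium cannot be told apart, and the sterol content of either medium is not given in the sources used here.

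Values are RPKM, reads adjusted for gene model length and for library size, and levels of different genes are compared on that scale. The library totals recovered from the tables were 53999963 (bone marrow) and 64872683 reads (heart). A gene was counted as higher in a library when log2((heart + 1)/(bone marrow + 1)) on RPKM reached 1 in size and its level there was 5 RPKM or more. Of 10 mesenchymal stromal markers, 8 reached 1 RPKM in marrow cells and 9 in heart cells. Col1a1 (1777 RPKM in marrow cells, 1751 in heart cells), Pdgfrb (133 and 139) and Cxcl12 (103 and 107) were close, but Thy1 (0.0603 and 16.7), Eng (0.576 and 33.9), Vcam1 (7.81 and 63.8) and Nes itself (1.20 and 8.74) were far lower in bone marrow. Nt5e was low in both, at 1.59 and 0.225 RPKM. Summed over 9 macrophage and leukocyte markers the level was 4.39 RPKM in marrow cells and 4.75 in heart cells, with Ptprc listed at 0.00469 and 0.0 and Adgre1 at 0.00571 and 0.0. Endothelial, adipocyte and cardiomyocyte marker lists summed to 1.36, 6.72 and 0.855 RPKM in bone marrow and to 0.272, 6.68 and 0.785 in heart.

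Cells build cholesterol from acetyl-CoA through mevalonate, the isoprenoid farnesyl diphosphate, squalene and lanosterol. SREBP transcription factors sit in the endoplasmic reticulum membrane bound to the escort protein Scap. When sterols are plentiful, Insig proteins hold that complex back. When sterols are scarce, the factors are cut free in the Golgi and switch on the synthesis genes. Oxysterols, made from surplus cholesterol, activate the LXR nuclear receptors, whose targets include the exporters Abca1 and Abcg1.

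Across the 33 genes, nearly all synthesis enzymes stood higher in bone marrow, and SREBP factors and their partners lay within 2-fold. The LXR targets Abca1, Abcg1 and Mylip stood higher in heart. Of the 33, 14 passed 2-fold toward bone marrow, against 9.51% of the 7659 genes with 5 RPKM or more in either library. Abca1 and Mylip, 2 of the 33, were at least 2-fold higher in heart, against 7.56% of those genes. Another 15 were neither, and Abcg1 and Nr1h3 stayed below 5 RPKM in both libraries and could not be counted. The median log2 ratio of the 7659 genes was -0.15, so a member at that value differs no more than the typical gene.

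**Figure D1:**
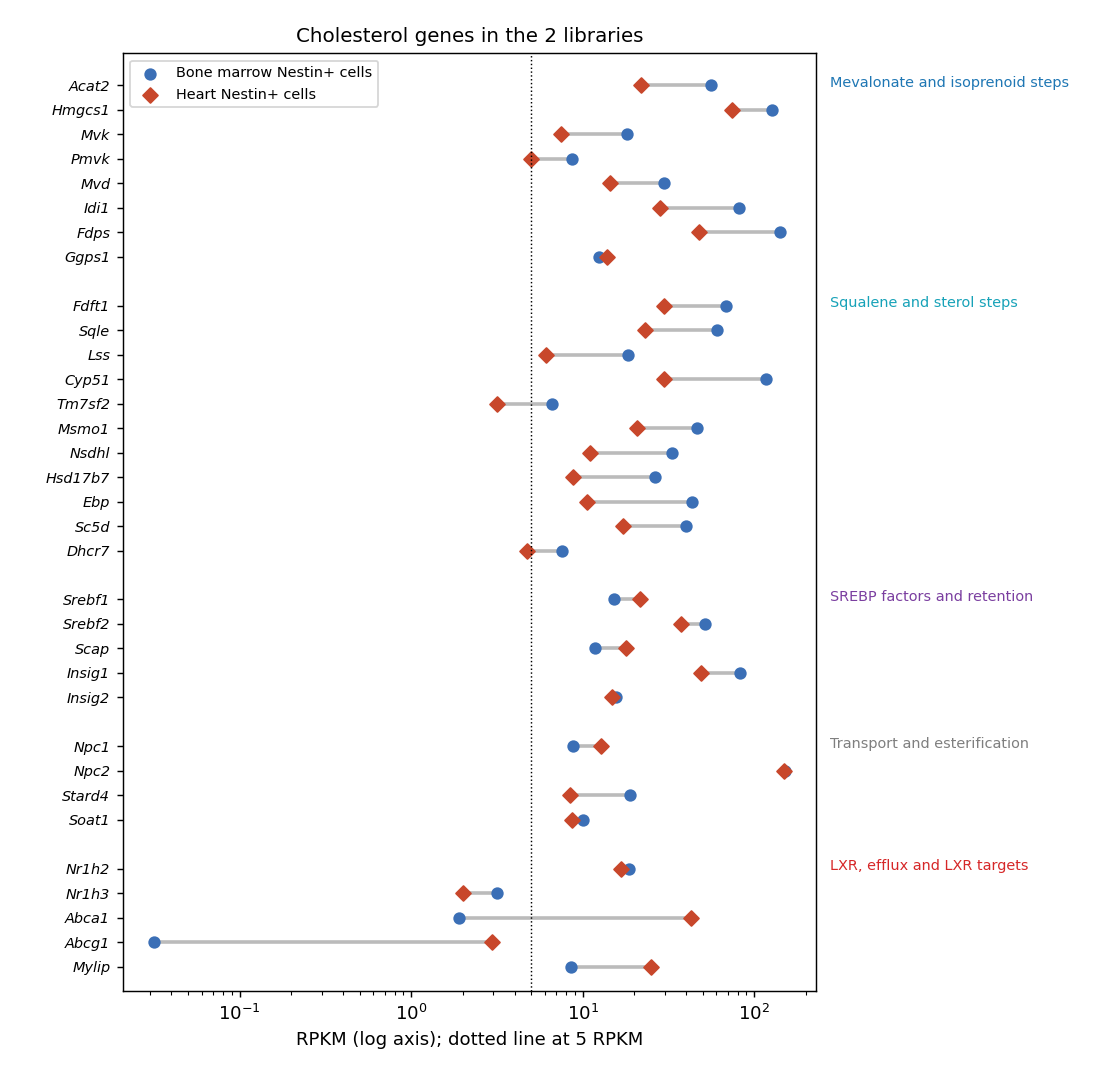
Level of each of the 33 genes in RPKM on a log axis, with circles for bone marrow and diamonds for heart, 1 library each, grouped by role; the dotted line marks 5 RPKM. The bone marrow point lies to the right of the heart point for 18 of 19 synthesis enzymes, while Abca1, Abcg1 and Mylip have the heart point to the right.

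The 19 synthesis enzymes went nearly all one way. Of these, 13 passed 2-fold toward bone marrow, none toward heart and 6 in neither direction, and all 19 reached 5 RPKM. Their median log2 ratio was -1.18, from -1.94 for Ebp to 0.13 for Ggps1. Summed, they stood at 943 RPKM in marrow cells and 376 in heart cells, a ratio of bone marrow to heart of 2.50. The order of the enzymes by level was much the same in both libraries, with Pearson's r of 0.932 between log2 RPKM and Spearman's rho of 0.951 over the 19 genes. These points are genes of the same libraries, not independent replicates. Each ratio below carries a 95% interval that covers counting error only.

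In the mevalonate and isoprenoid part, 4 of 8 genes passed 2-fold toward bone marrow, none toward heart, and the median log2 ratio was -1.09. Acat2, an acetyl-CoA acetyltransferase that joins the first acetyl units, stood at 56.1 RPKM in marrow cells and 21.8 in heart cells. Its heart to bone marrow ratio was 0.388 (interval 0.373 to 0.404), from 7708 and 3596 reads. Its close relative Acat3 stood at 0.490 and 0.631 RPKM, and reads shared between such copies make both values uncertain.

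Hmgcs1, the cytosolic HMG-CoA synthase of the next step, was the second most abundant of the 19 in bone marrow and the most abundant in heart, at 127 and 73.9 RPKM. Its ratio of 0.581 (0.569 to 0.593) was closer to 1 than that of most synthesis genes. Hmgcs1 therefore made up 13.5% of the summed synthesis level in marrow cells and 19.6% in heart cells. The gene lies on chromosome 13 at 119690462 to 119708086, plus strand, and 12.1% of its exon bases lie opposite the antisense gene Gm48342.

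The kinases and the decarboxylase that turn mevalonate into an isoprenoid unit stood higher in bone marrow, from 1.75-fold for Pmvk to 2.43-fold for Mvk. Mvk, mevalonate kinase, had 18.2 RPKM in marrow cells and 7.50 in heart cells, a log2 ratio of -1.18, or -0.89 with 5 RPKM added. Pmvk, phosphomevalonate kinase, had 8.67 and 4.97 RPKM, a log2 ratio of -0.70. Mvd, the decarboxylase, had 29.6 and 14.4 RPKM. Its log2 ratio of -0.995 fell just short of the 2-fold rule because of the added 1 RPKM, and its ratio without that addition was 0.485 (0.457 to 0.515).

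Idi1 and Fdps, which isomerise and join the isoprenoid units, had larger differences. Idi1 stood at 81.5 RPKM in marrow cells and 28.1 in heart cells, with 15423 and 6390 reads and a ratio of 0.345 (0.335 to 0.355). Its relative Idi2 was listed at 0 in both libraries. Fdps, farnesyl diphosphate synthase, was the most abundant synthesis gene in bone marrow, with a ratio of 0.335 (0.328 to 0.342). In the annotation, 26.7% of its exon bases also lie in the same-strand gene Gm43738, which stood at 0.506 and 0.263 RPKM.

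Ggps1 stood apart from the other 18. It makes geranylgeranyl diphosphate, a lipid anchor for proteins, on a side branch that does not lead to sterols. It had 12.5 RPKM in marrow cells and 13.8 in heart cells, a ratio of 1.10 (1.03 to 1.18), and was the only synthesis gene with a ratio above 1. Its share of the summed synthesis level was 1.32% in marrow cells and 3.65% in heart cells.

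From squalene onward, all 11 genes stood higher in bone marrow and 9 did so at least 2-fold, with a median log2 ratio of -1.36. The summed level of these 11 was 468 RPKM in marrow cells and 165 in heart cells, a ratio of 2.84, against 475 and 212 RPKM and a ratio of 2.25 for the 8 mevalonate and isoprenoid genes. Fdft1, squalene synthase and the committed step to sterols, stood at 68.0 and 29.6 RPKM, a ratio of 0.435 (0.421 to 0.450). Fdft1 shares 18.3% of its exon bases with Ctsb on the opposite strand, and Ctsb was high in both libraries, at 149 RPKM in marrow cells and 287 in heart cells. Whether the authors counted by strand is not given in the sources used here, and the part of Ctsb reads in the value of Fdft1 was not tested.

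Sqle, squalene epoxidase and a control point of the later pathway, had 60.4 RPKM in marrow cells and 22.9 in heart cells, a ratio of 0.380 (0.370 to 0.390). Lss, which closes the ring to lanosterol, had 18.2 and 6.14 RPKM, a ratio of 0.337 (0.325 to 0.349). Both were thus well beyond 2-fold, with intervals far from 1. Cyp51, lanosterol demethylase, had 27957 and 8557 reads, a ratio of 0.255 (0.249 to 0.261). Its share of the summed synthesis level was 12.4% in marrow cells and 7.94% in heart cells.

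The enzymes that trim the methyl groups of lanosterol all stood higher in bone marrow. Msmo1, methylsterol monooxygenase, stood at 46.0 RPKM in marrow cells and 20.7 in heart cells, a log2 ratio of -1.11 that fell short of 2-fold with 5 RPKM added (-0.99) or scaled to a median ratio of 1 (-0.97). Nsdhl, a sterol dehydrogenase on the X chromosome, stood at 33.3 and 11.05 RPKM, and Hsd17b7, its partner ketoreductase, at 26.5 and 8.73. The last pair had nearly the same ratio, 0.332 (0.315 to 0.349) and 0.329 (0.315 to 0.344), with intervals that overlap almost whole.

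Ebp, the sterol isomerase, and Cyp51 had the largest differences toward bone marrow of the 33. Their counting intervals overlap, and Cyp51 had the lower log2 ratio with 5 RPKM added, -1.81 against -1.64. Ebp stood at 43.6 RPKM in marrow cells and 10.6 in heart cells, with 5440 and 1588 reads and a ratio of 0.243 (0.230 to 0.257). Among the 7659 genes, 236 had a lower log2 ratio. Sc5d, sterol desaturase, had 40.04 and 17.1 RPKM, a log2 ratio of -1.18.

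The least abundant synthesis genes did not meet the 2-fold rule. Tm7sf2, a sterol reductase, had 6.66 RPKM in marrow cells and 3.18 in heart cells. Without the added 1 RPKM its ratio was 0.478 (0.435 to 0.524), so the added value decides its side of the rule. Dhcr7, the final reductase of a branch to cholesterol, had 7.60 and 4.71 RPKM, a ratio of 0.620 (0.575 to 0.668). Tm7sf2 shares 12.1% of its exon bases with the same-strand gene Vps51, which stood at 5.41 and 5.84 RPKM.

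**Figure D2:**
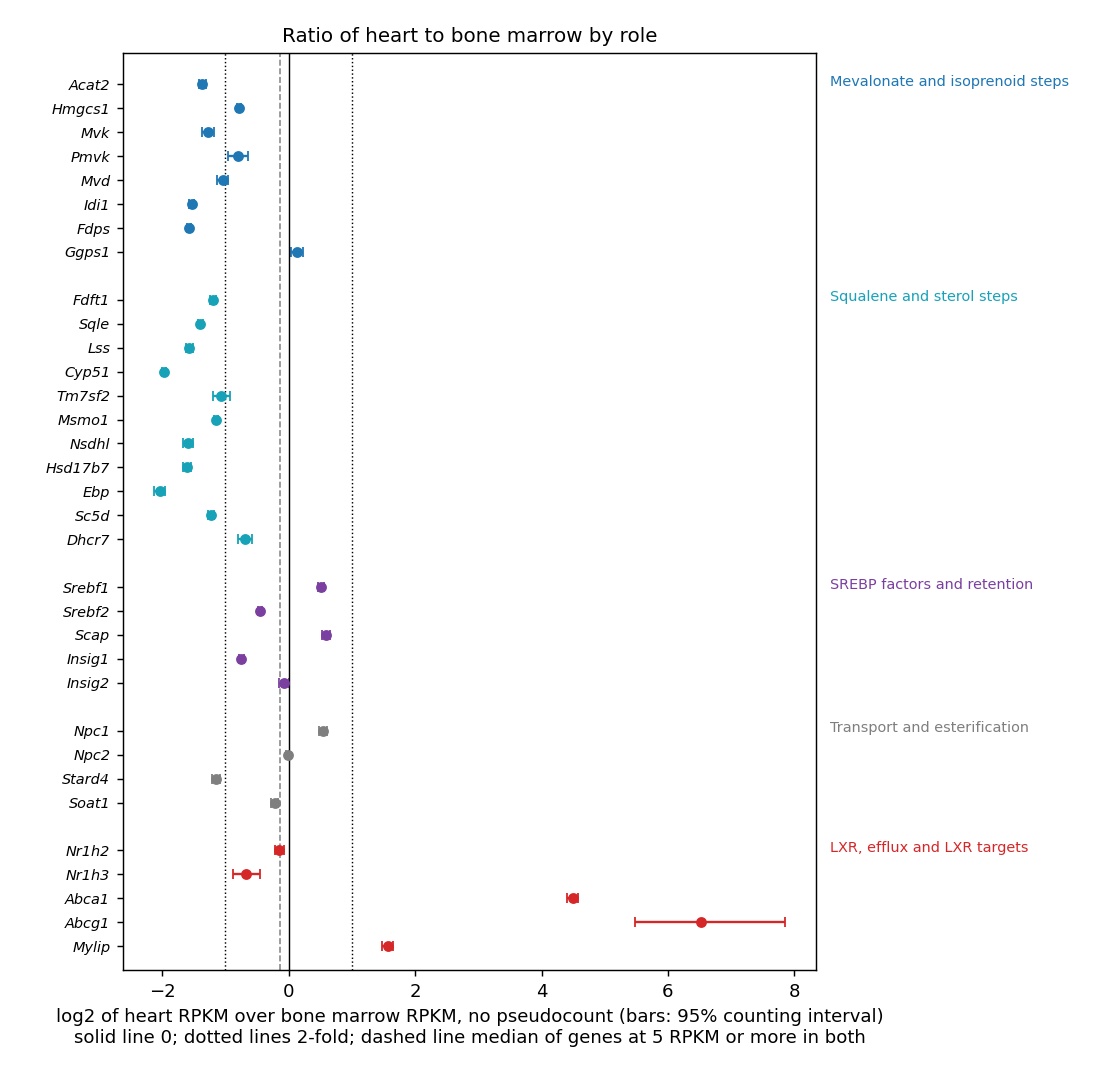
Log2 of the heart over the bone marrow RPKM for each gene, with no value added, by role; bars are 95% counting intervals, dotted lines mark 2-fold and the dashed line the median of -0.14 over genes with 5 RPKM or more in each library. Synthesis genes lie left of 0 except Ggps1, and Abca1, Abcg1 and Mylip lie right of the 2-fold line, Abcg1 with the widest interval.

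The stretches upstream of the starts of 5 genes are shown to compare synthesis genes with LXR targets. They are the 250 bases before the start, from RefSeq on GRCm38.p6, in the direction of the gene. Capitals mark a sterol regulatory element, searched as TCACNCCAC, and CCAAT boxes, the letters bound by NF-Y, a common partner of SREBP, both read on either strand, where a reversed CCAAT appears as ATTGG. Hmgcs1 (chr13:119690101-119690350, plus strand) is shown as the synthesis gene with both motifs, and Cyp51 (chr5:4104698-4104947, minus strand) and Ebp (chrX:8193513-8193762, minus strand) as those with the largest differences. Abca1 (chr4:53159896-53160145, minus strand) and Mylip (chr13:45389492-45389741, plus strand) were higher in heart.
Hmgcs1: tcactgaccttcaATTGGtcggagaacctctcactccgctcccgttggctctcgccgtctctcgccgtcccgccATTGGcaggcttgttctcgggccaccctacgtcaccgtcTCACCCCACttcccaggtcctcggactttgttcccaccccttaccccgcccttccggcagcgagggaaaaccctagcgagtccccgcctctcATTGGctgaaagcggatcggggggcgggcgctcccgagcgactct
Cyp51: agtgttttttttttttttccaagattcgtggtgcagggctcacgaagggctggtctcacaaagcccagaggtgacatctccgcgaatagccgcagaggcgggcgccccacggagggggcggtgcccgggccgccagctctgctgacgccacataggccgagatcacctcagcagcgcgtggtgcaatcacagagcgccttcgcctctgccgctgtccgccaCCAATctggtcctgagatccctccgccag
Ebp: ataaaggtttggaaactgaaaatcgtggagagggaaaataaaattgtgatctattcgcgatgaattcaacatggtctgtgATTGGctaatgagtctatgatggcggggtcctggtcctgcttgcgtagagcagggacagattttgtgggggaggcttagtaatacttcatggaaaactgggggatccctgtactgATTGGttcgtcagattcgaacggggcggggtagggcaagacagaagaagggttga
Abca1: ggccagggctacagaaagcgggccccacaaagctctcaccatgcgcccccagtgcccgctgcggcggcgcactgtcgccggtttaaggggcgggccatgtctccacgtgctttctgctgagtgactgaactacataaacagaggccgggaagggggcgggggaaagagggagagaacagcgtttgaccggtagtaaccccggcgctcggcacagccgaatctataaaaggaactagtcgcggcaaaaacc
Mylip: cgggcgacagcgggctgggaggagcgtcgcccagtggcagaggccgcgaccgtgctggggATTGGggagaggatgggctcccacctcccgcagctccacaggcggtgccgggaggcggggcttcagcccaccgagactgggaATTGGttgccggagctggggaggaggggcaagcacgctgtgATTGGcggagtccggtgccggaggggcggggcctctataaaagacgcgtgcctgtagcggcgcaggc

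A CCAAT box was a common feature of the synthesis promoters. Windows of 300 bases, 250 before to 50 after the start, were found for 27 of the 33 genes. The synthesis genes without a window were Fdps, Fdft1 and Sqle. A gene with several starts counted when the window of any start had the motif. Among the 250 bases before each start of Dhcr7, CCAAT lay before start 3 alone. CCAAT occurred in the windows of 15 of 16 synthesis genes, all but Acat2, and of 7 of the 11 other genes, against 42.6% of 5944 genes at or above 5 RPKM and 41.1% of all 27025 genes with a window. The sterol regulatory element as spelled was found in Hmgcs1 alone, beginning 137 bases before the start, and in 1.45% of those 5944 genes. That start is the RefSeq one. The stretch before it ends at 119690350, upstream of the deposited gene row of Hmgcs1, which begins at 119690462. For Cyp51, on the minus strand, the stretch begins at 4104698, inside the deposited gene row, which ends at 4104746. The marked CCAAT box of Cyp51, 29 to 25 bases before the RefSeq start, lies in that overlap. GGGCGG, a GC box, was in 14 of 16 synthesis windows and in 73.8% of the 5944. A direct repeat LXR element was searched only as AGGTCA, any 4 bases and AGGTCA again, on either strand. That exact spelling was in none of the 27 windows, none of the 5944 and 4 of all 27025. Looser spellings were not searched, also not in the Abca1 stretch shown. With a spelling this rare, the count cannot tell whether the members have an LXR element. A match is letters in a window, not a measured site, and an absent match says nothing beyond it.

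The regulators of SREBP did not share the difference of the enzymes. None of the 5 was 2-fold apart, and the median log2 ratio was -0.07, close to the -0.15 over all genes. Srebf2, the factor that chiefly drives cholesterol genes, stood at 51.4 RPKM in marrow cells and 37.5 in heart cells, a ratio of 0.729 (0.712 to 0.747). Srebf1, which favours fatty acid genes, went the other way, at 15.2 and 21.7 RPKM, a ratio of 1.43 (1.37 to 1.48). These are transcript levels, and the cut, active form of either protein was not measured.

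Scap, the escort, stood at 11.8 RPKM in marrow cells and 17.8 in heart cells, a ratio of 1.51 (1.44 to 1.57). The retention proteins Insig1 and Insig2 differed from each other. Insig1, itself a known SREBP target, had 82.1 and 48.9 RPKM, a log2 ratio of -0.74. Insig2 had 15.7 and 14.9 RPKM, a log2 ratio of -0.07 that changed sign with the scaling between libraries. Among the 5, Insig1 was therefore nearest to the synthesis genes, at a smaller difference than their median of -1.18.

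Genes of intracellular transport and storage were mixed. Npc2, a soluble lysosomal protein that binds cholesterol, was the most abundant of all 33 in heart and in bone marrow, at 149 and 150.2 RPKM, a ratio of 0.992 (0.976 to 1.01). Its membrane partner Npc1, which passes cholesterol out of the lysosome, had 8.82 RPKM in marrow cells and 12.8 in heart cells, a ratio of 1.45 (1.39 to 1.52). Npc1 was thus the only one of these 4 with a log2 ratio clearly above 0, while the sign for Npc2 depends on the scaling. Stard4, a soluble sterol carrier and a known SREBP target, stood at 18.8 and 8.41 RPKM. Its log2 ratio of -1.07 just passed 2-fold toward bone marrow, alone among the members outside the synthesis enzymes. It did not pass with 5 RPKM added (-0.82), with a floor of 20 RPKM, or with the libraries scaled to a median ratio of 1 (-0.94), the same upper quartile (-0.99) or the same RPKM sum (-0.99). Soat1, which esterifies cholesterol for storage, had 10.1 and 8.65 RPKM, a log2 ratio of -0.20, near the median of all genes.

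Among the members grouped as LXR genes, the targets Abca1, Abcg1 and Mylip stood higher in heart and the receptors did not. With 1 RPKM added, Abca1 had the largest difference of all 33 genes; with 0.1 RPKM added the low gene Abcg1 was slightly past it, at a log2 ratio of 4.53 against 4.42. Abca1, which loads cholesterol onto lipid-poor apolipoprotein and starts HDL, stood at 1.91 RPKM in marrow cells and 42.9 in heart cells, from 1069 and 28862 reads. The ratio was 22.5 (21.1 to 23.9) and the log2 ratio 3.92. Only 55 of the 7659 genes had a higher log2 ratio. Abca1 lies on chromosome 4 at 53030787 to 53159895, minus strand, and its level ranked 9520 among all symbols in marrow cells and 910 in heart cells.

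Abcg1, which exports cholesterol to mature HDL, was low in both libraries and nearly absent from bone marrow. It stood at 0.0319 RPKM there and 2.94 in heart, from 7 and 775 reads. Its ratio of 92.2 has a wide interval, 44.5 to 230.0, and with 1 RPKM added the log2 ratio was 1.93. It stayed under the 5 RPKM floor and counts as higher in heart only with a lower floor.

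Mylip, also called Idol, is a ubiquitin ligase that sends lipoprotein receptors to degradation. It stood at 8.51 RPKM in marrow cells and 25.2 in heart cells, with 1407 and 4996 reads and a ratio of 2.96 (2.79 to 3.14). Both receptor genes had ratios below 1. Nr1h2, LXR beta, had 18.6 RPKM in marrow cells and 16.8 in heart cells, a log2 ratio of -0.14, close to the median of all genes and of opposite sign when the libraries were scaled to a median ratio of 1. Nr1h3, LXR alpha, had 3.18 and 2.00 RPKM, from 432 and 326 reads, a ratio of 0.628 (0.542 to 0.727).

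Macrophages are rich in Abca1, Abcg1 and Nr1h3, and so the leukocyte markers are given beside these genes. Of 9 markers, 2 reached 1 RPKM in each library, Lyz2 at 1.05 and 1.08 RPKM and Cd14 at 2.79 and 2.97. Ptprc and Adgre1 were listed at 0 in heart, and Csf1r was lower there, at 0.104 RPKM against 0.144 in marrow cells. The other 6 were higher in heart, among them Cd68 at 0.368 RPKM in marrow cells and 0.540 in heart cells. The part of macrophages in the values of the LXR genes was not tested.

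**Figure D3:**
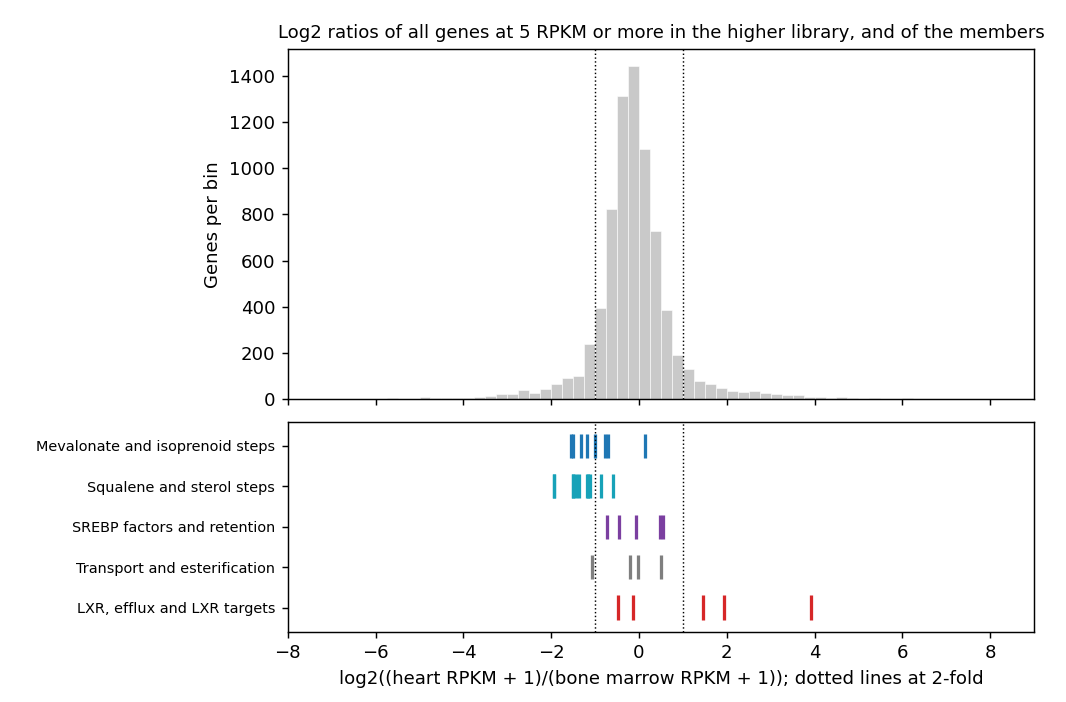
Top, number of genes per bin of log2((heart RPKM + 1)/(bone marrow RPKM + 1)) for the 7659 genes with 5 RPKM or more in either library; bottom, the 33 genes as ticks on the same axis by role, including Abcg1 and Nr1h3 below that floor. Dotted lines mark 2-fold. Most synthesis ticks lie left of -1 and 3 LXR targets right of 1.

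Other genes of the pathway were read from lists put together by function. Fatty acid synthesis and other targets of Srebf1 leaned the same way as cholesterol synthesis but less. Of 15 genes, 3 passed 2-fold toward bone marrow, against 9.51% of the 7659 genes with 5 RPKM or more in either library. None passed toward heart, against 7.56% of those genes. Another 10 were neither and 2 were below 5 RPKM, with a median log2 ratio of -0.55. Those 3 were Me1, malic enzyme, at 40.3 RPKM in marrow cells and 9.77 in heart cells, the fatty acid desaturase gene Fads2 at 79.0 and 34.5, and the elongase gene Elovl6 at 11.04 and 4.59. Whether the 2 lists differ from each other was not tested.

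The proteins that cut SREBP or degrade sterol enzymes, 10 genes, had a median log2 ratio of 0.01, with none 2-fold apart and 2 below 5 RPKM. The sterol-binding protein gene Pgrmc1 had 69.5 RPKM in bone marrow and 93.7 in heart. Genes that use isoprenoids, 13 in all, had a median of -0.27, with none 2-fold apart with 1 RPKM added and 3 below 5 RPKM. The farnesyltransferase subunit gene Fntb had 5.50 RPKM in marrow cells and 2.61 in heart cells, and Nus1, a dolichol synthesis gene, had 29.5 and 22.1.

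The 16 genes of sterol uptake and transport outside the 33 were mixed, with 9 log2 ratios above 0 and 7 below and a median of 0.31. Of these, 2 passed 2-fold toward heart, none toward bone marrow, 12 were neither and 2 were below 5 RPKM, where 7.56% of all genes passed 2-fold toward heart. Scarb2, a lysosomal membrane protein of the scavenger receptor family, stood at 26.1 RPKM in marrow cells and 219.8 in heart cells, a ratio of 8.42 (8.21 to 8.63). Gramd1b, which moves cholesterol from the plasma membrane to the endoplasmic reticulum, had 2.07 and 8.18 RPKM. Lipa, the lysosomal acid lipase that frees cholesterol from its esters, had 20.6 and 37.6 RPKM, a log2 ratio of 0.84.

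Among 13 other LXR pathway and oxysterol genes, 2 passed 2-fold toward heart, against 7.56% of the 7659 genes. None passed toward bone marrow, against 9.51% of those genes. Another 8 were neither and 3 were below 5 RPKM, with a median log2 ratio of -0.06 over the list. Apoe, an apolipoprotein gene and LXR target, stood at 1.21 RPKM in marrow cells and 40.1 in heart cells, a ratio of 33.1 (27.8 to 39.7). Cyp7b1, an oxysterol hydroxylase gene, had 3 reads in marrow cells and 1064 in heart cells, a ratio of 295 (101 to 1434). Lpcat3, a phospholipid remodelling enzyme and also a known LXR target, went the other way, at 17.03 and 10.96 RPKM. The known LXR targets therefore did not all stand higher in heart.

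**Figure D4:**
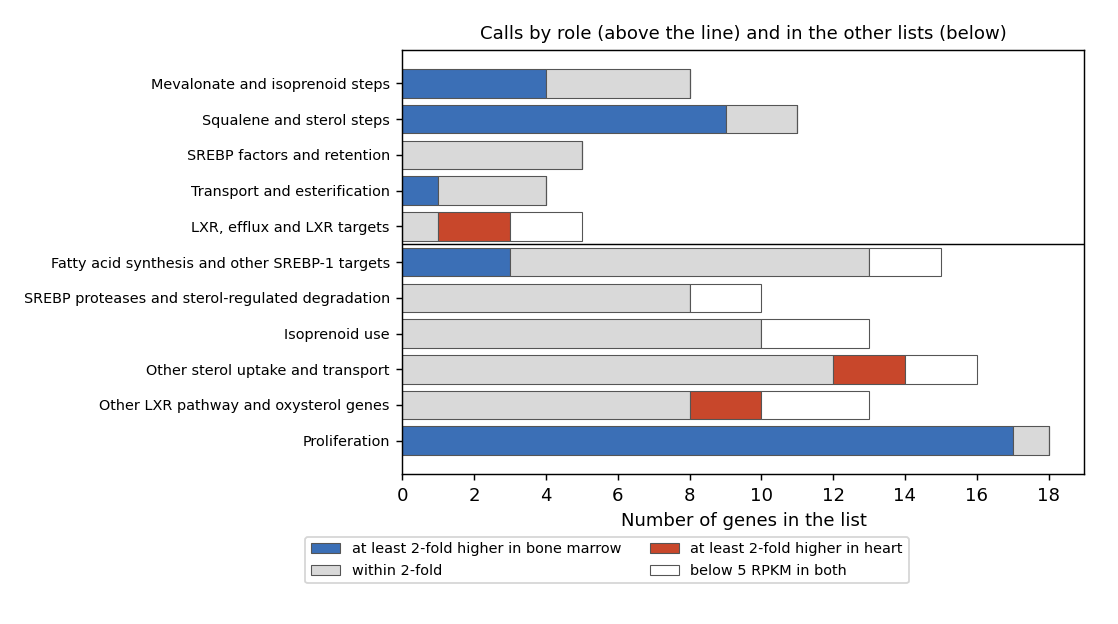
Number of genes in each list past 2-fold toward bone marrow (blue), within 2-fold (grey), past 2-fold toward heart (red) or below 5 RPKM in both libraries (white). Blue fills 13 of 19 places in the 2 synthesis rows and 17 of 18 in the proliferation row, and red appears in the LXR row and in 2 of the other lists.

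Proliferation genes also stood higher in bone marrow. Of 18, 17 passed 2-fold toward bone marrow, against 9.51% of the 7659 genes with 5 RPKM or more in either library. The median log2 ratio of the 18 was -1.74, against -0.15 over those 7659 genes. Summed, the 18 stood at 393 RPKM in marrow cells and 100.4 in heart cells. Rrm2, a ribonucleotide reductase subunit gene, had 60.9 and 2.33 RPKM, and the replication helicase genes Mcm3 and Mcm6 had log2 ratios of -2.25 and -2.21. The exception was Tyms, thymidylate synthase, at 3.55 and 6.09 RPKM, named after its values were seen. The part of cell division in the cholesterol synthesis difference was not tested. In bulk RNA, fewer cells expressing a gene and less RNA per cell cannot be told apart.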

How the data were processed

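Libraries were made from 1 ug of total RNA with standard Illumina chemistry, per the labels' protocols. The authors deposited RPKM per gene, per the file headers, for 49585 rows with a region each. The submitters' processing notes name genome build mm8; however, 45149 rows (91.05%) sit at the coordinates of GENCODE M21 models on GRCm38, and positions were read on GRCm38. Which aligner and counter the authors ran, and whether by strand, is not given in the sources used here.

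Reads were derived from the RPKM values: with exon-union lengths, 12292 of 14255 genes above 0 in both libraries (86.2%) gave whole reads in both within 0.02 reads. For 21 of the 33 genes the length came from the model at the same coordinates. For 12 it was the shortest length, at or above 50% of the annotated model, that gave whole reads in both, so their read counts may be too low and their intervals too wide. Intervals are exact conditional Clopper-Pearson intervals at 95%, cover counting error only, and treat reads as independent although no molecular identifiers are recorded. Rows sharing a symbol were represented by the highest.

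The members and lists were chosen with earlier results of these data known, so counts and medians are descriptions. Named genes are all members and, from each other list, up to 3 with the largest log2 ratio at or above 5 RPKM; 1 such gene is not reported here. Col1a1, Ctsb, Vps51, Gm43738, Acat3, Idi2, Tyms and the markers are outside that rule. Sequences matched by symbol. The alternatives were other pseudocounts, floors, folds, scalings and summed rows. Scripts ran under Python 3.11.15 with scipy 1.17.1, pandas 2.3.3, numpy 2.4.6 and, for figures, matplotlib 3.10.9, and were tested on simulated data.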

Additional observations from a re-analysis of the deposited data

How the results depend on the processing

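The count of synthesis genes past 2-fold toward bone marrow was 13, and lay between 11 and 18 with pseudocounts of 0.1 and 5 RPKM, floors of 1, 20 or no RPKM, a 1.5-fold threshold, 4 scalings and summed rows; none was higher in heart in any of these. With a 4-fold threshold it fell to 0 and the count over all 33 genes also to 0, while 1 of the 33, Abca1, was at least 4-fold higher in heart. Scaling to a median ratio of 1 added 0.15 to the log2 ratio of abundant genes, gave 12 of 33 genes higher in bone marrow and 2 in heart, and took Msmo1 and Stard4 below 2-fold. Stard4 also fell below it when scaled to the same upper quartile or RPKM sum, and Msmo1, Mvk and Stard4 with 5 RPKM added, while Mvd and Tm7sf2 passed it with 0.1 RPKM added. Over all genes that scaling turned 9.51% higher in bone marrow and 7.56% in heart into 7.45% and 8.99%. With a floor of 1 RPKM, Abcg1 counted as higher in heart, and with one of 20 RPKM, Mvk, Lss and Stard4 lay below it. The log2 ratios of Insig2, Npc2 and Nr1h2 changed sign with the scaling. Of the single ratios, medians and motif shares recomputed, 155 moved by more than counting error and 115 did not, and none that was 2-fold apart reversed. Leaving out a library was not possible, and no paired analysis was possible because each tissue has 1 library. Depth limits Abcg1, with 7 reads in bone marrow, while Nr1h3, with 432 and 326 reads, was left uncounted by the 5 RPKM floor.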
